A study of Mus musculus with 16 samples.

Results

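The transcriptome of mouse embryonic stem cells labelled as overexpressing Tgif2 was compared with that of BirA control cells. The comparison was defined by the sample titles and holds 4 arrays labelled Tgif2 OE (overexpression) and 4 labelled BirA control, 8 of the 16 arrays of the series. All 12393 genes that had a probe set with exactly 1 gene symbol were tested, which draws on 20380 of 22690 probe sets. The cells were of the J1 line of embryonic stem (ES) cells, grown without a feeder layer being named, on gelatin with fetal bovine serum and leukemia inhibitory factor (LIF). The genotype label of the controls is BirA OE, BirA being a bacterial biotin ligase, and that of the other cells is overexpression of Tgif2; the promoter of the transgene, the number of clones and whether the Tgif2 cells also carry BirA are not given in the labels. RNA was hybridized to Affymetrix Mouse 430A 2.0 arrays. A further 4 arrays of J1 cells labelled Tgif1 OE served for a direct comparison of the overexpression groups, and 2 Tgif1 KD (knockdown) and 2 shControl arrays entered only the estimate of the spread. No label tells if the replicates came from separate cultures, so p-values measure the spread between these arrays, which may be technical.

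Tgif1 and Tgif2 are closely related homeodomain proteins of the TALE class. They repress transcription by recruiting corepressors to DNA, where their homeodomain is known to recognize the letters CTGTCA, and by binding the Smad proteins that carry Nodal and TGF-beta signals to the nucleus. Mouse ES cells in serum and LIF hold a self-renewing state, which is maintained by Pou5f1 (Oct4), Sox2 and Nanog together with a set of naive factors such as Esrrb and Tbx3, and which gives way to a formative state and then to lineages when those factors decline.

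Values are log2 intensities. The deposited columns of the arrays labelled Tgif2 OE sat higher than the others, with medians of 6.52 to 6.56 against 6.41 to 6.51 on the other 12 arrays. The median difference from BirA control over all genes was 0.12, and 18 spiked-in hybridization controls differed by a median of 0.13. That 0.12 was taken off the columns labelled Tgif2 OE, so every change below is relative to the median gene. The submitters' processing notes name an extra tool for these samples, so a processing run and the group cannot be told apart. Within both groups, replicates 1 and 2 deviated from the group mean together and opposite to replicates 3 and 4, and the changes are therefore also given within each pair. The difference between the 5′ and 3′ control probe sets, a measure of RNA integrity, was -0.12 ± 0.08 for Gapdh on the arrays labelled Tgif2 OE and -0.08 ± 0.04 on BirA control (SD, n = 4; exact two-sided permutation p = 0.514). Of 8 ES cell markers, 1 was lower (Fgf4) and 0 were higher by limma (3 lower and 0 higher at an unadjusted p under 0.05). That is 12.5% called, beside 26.7% of all genes. The Fgf4 change of -0.27 was not called with a random block for replicates 1-2 and 3-4 (adjusted p = 0.0554) or without the median shift (0.0549).

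The probe set for Tgif2 did not register a rise. It read 9.18, 9.30, 9.17 and 9.35 on the arrays labelled Tgif2 OE and 9.35, 9.28, 9.24 and 9.17 on BirA control, in the order of replicates 1 to 4. The groups overlapped, and the change was -0.01 ± 0.07 (standard error, as for every change below; limma adjusted p = 0.934). In the columns as deposited the difference was 0.11. The array has 1 probe set for Tgif2, and it is not known here whether that probe set detects the transgene, which may lack the part of the transcript that the probes match. The samples are therefore called by their labels. Tgif1 fell on the same arrays: it read 10.09, 10.18, 10.19 and 10.15 against 10.65, 10.67, 10.70 and 10.74, with no overlap, a change of -0.54 ± 0.07 (adjusted p = 7.29e-05). The fall was alike in both pairs of replicates, -0.55 in replicates 1-2 and -0.53 in replicates 3-4. On the arrays labelled Tgif1 OE, which share the BirA controls, Tgif1 changed by -0.59 and Tgif2 by -0.46, and the Tgif2 signal was higher on the arrays labelled Tgif2 OE than on those labelled Tgif1 OE by 0.45 ± 0.07 (adjusted p = 6.65e-04).

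**Figure D1:**
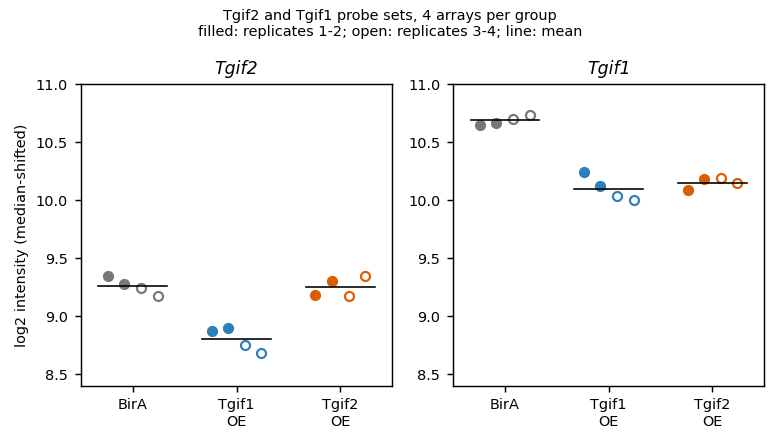
Signal of the Tgif2 and Tgif1 probe sets in log2 intensity on each of 4 arrays per group, filled for replicates 1-2 and open for 3-4, with the mean as a line; the axis does not start at 0. Tgif2 on the arrays labelled Tgif2 OE lies within 9.17 to 9.35, the range of BirA control, and Tgif1 is lower there by 0.54.

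Across the 12393 genes, 3310 differed from BirA control at an adjusted p under 0.05 in limma's moderated test, which is 26.7% of those tested. There were 1694 higher (13.7%) and 1616 lower (13%), and the changes ran from -1.80 to 2.46 with a median size of 0.14. Changes of at least 2-fold were called for 168 genes (1.36%), of which 116 were higher (0.936%) and 52 lower (0.42%). The 4 arrays of each group did not overlap for 3257 genes (26.3%), 1651 of them higher (13.3%) and 1606 lower (13%). With the array pair within a group (replicates 1-2 or 3-4) as a random block, 1499 genes were called.

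Replicates 1-2 and replicates 3-4 give 2 estimates of each change that share no array. They correlated across genes at r = 0.72 (Spearman's rho = 0.64), as a description, since genes are not independent replicates. The fit on replicates 1-2 called 3471 genes and that on replicates 3-4 called 4026, with 2175 called in the same direction by each. Of the 3310 genes called over all 8 arrays, 3306 had the same sign in each pair (26.7% of all genes tested). Those calls use both pairs, so equal signs largely follow from the selection and do not measure replication. The size of the change differed between the pairs, at an adjusted p under 0.05 for the difference itself, for 729 genes (5.88%), 300 of which were among the 3310. Nefm, the medium neurofilament chain, was the plainest such case among the genes named here, with 0.58 in replicates 1-2 and 2.67 in replicates 3-4 (adjusted p of the difference = 2.99e-06). The labels do not say what separates the pairs, and its part in these sizes was not tested.

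**Figure D2:**
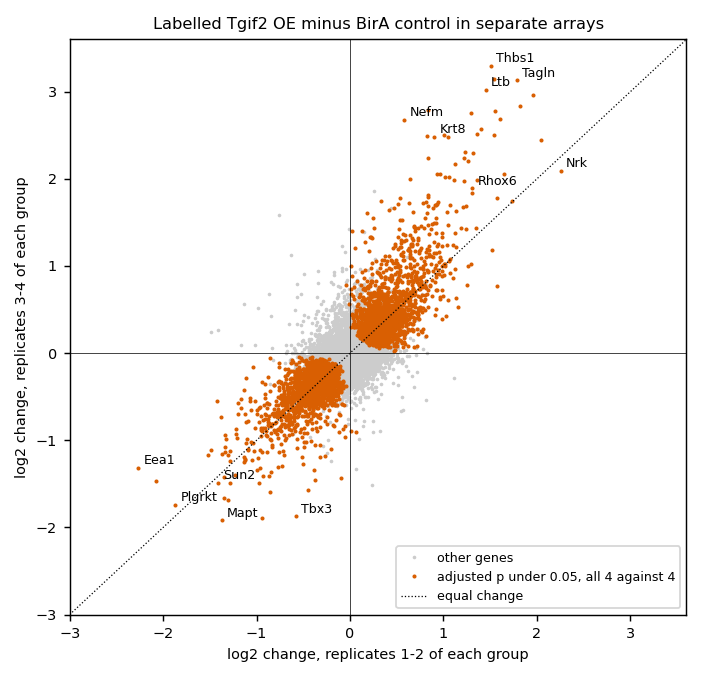
Change of each gene (labelled Tgif2 OE minus BirA control, log2) in replicates 1-2 on the horizontal axis and in replicates 3-4 on the vertical axis, with the 3310 called genes in orange and equal change as a dotted line. The points correlate at 0.72, and many of the largest rises lie above the line, among them Nefm at 0.58 and 2.67.

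The 12 largest rises were of Myl9, Tagln, Thbs1, Prss23, Gbp3, Ms4a4d, Ltb, Nrk, Anxa3, Gbp2, Krt18 and Stbd1. Myl9, the regulatory light chain of smooth muscle and nonmuscle myosin, read 7.68, 7.63, 8.88 and 9.13 on the arrays labelled Tgif2 OE and 5.36, 5.98, 6.12 and 5.99 on BirA control. Every array labelled Tgif2 OE was above every control, and Myl9 rose 5.51-fold (2.46 ± 0.29 log2, adjusted p = 2.11e-05). Tagln, an actin-binding protein of smooth muscle, went from 6.65, 6.98, 7.35 and 7.08 to 8.64, 8.60, 10.24 and 10.40, a rise of 2.46 ± 0.36 (1.73e-04). Thbs1, a secreted matricellular glycoprotein, rose by 2.40 ± 0.38 (2.80e-04); its other probe set gave 1.02. For Myl9, Tagln and Thbs1 replicates 3-4 stood above replicates 1-2 within the arrays labelled Tgif2 OE, and the change in replicates 1-2 alone was 1.96 for Myl9, 1.78 for Tagln and 1.51 for Thbs1.

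The serine protease gene Prss23 rose by 2.34 ± 0.43 (adjusted p = 9.92e-04). Ms4a4d, a membrane protein of the family that includes CD20, rose by 2.25 ± 0.21 (3.36e-06), and Ltb, which encodes lymphotoxin beta, by 2.24 ± 0.50 (0.0041). Nrk, a kinase of the germinal center kinase family, read 7.90, 7.97, 7.96 and 8.05 against 5.84, 5.47, 6.01 and 5.87. It had the tightest values of the 12 largest rises, its change was 2.17 ± 0.10 (1.07e-08), and it was of like size in replicates 1-2 (2.26) and 3-4 (2.09). One of the other Nrk probe sets gave 1.48 and the other, at a mean of 3.27 log2, gave -0.06. Ltb, Prss23 and Anxa3 rose less in replicates 1-2 (1.45, 1.54 and 1.55) than in replicates 3-4 (3.02, 3.15 and 2.78). The annexin gene Anxa3 rose by 2.16 ± 0.45 (0.0022) and Stbd1, a glycogen-binding protein, by 2.03 ± 0.18 (2.04e-06).

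The largest falls were of genes with no common pathway named in the lists. Plgrkt, a plasminogen receptor of the plasma membrane, read 6.44, 6.14, 6.52 and 6.63 on the arrays labelled Tgif2 OE and 8.24, 8.03, 8.37 and 8.30 on BirA control. It fell by 1.81 ± 0.11 log2 (adjusted p = 7.84e-08), the largest fall among all genes called, and was alike in both pairs (-1.87 and -1.74). Eea1, a tethering protein of early endosomes, read 4.10, 4.28, 4.33 and 4.60 against 6.53, 6.35, 5.69 and 5.92 and fell by 1.79 ± 0.17 (3.84e-06). Timm8a2, of a family that escorts proteins into mitochondria, fell by 1.78 ± 0.17 (4.65e-06). Sun2, a protein of the inner nuclear membrane that links the nucleus to the cytoskeleton, read 6.59, 6.66, 6.59 and 6.31 against 8.04, 8.01, 7.91 and 8.0, a change of -1.45 ± 0.07 (1.36e-08). None of the arrays of the groups overlapped for these 4 genes.

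Mapt (tau, a microtubule-binding protein of neurons) changed by -1.65 ± 0.10 (adjusted p = 1.07e-07), with -0.44 and -0.59 from its dimmer probe sets. The gene for the transcriptional repressor Zeb1, known for repressing E-cadherin, changed by -1.51 ± 0.11 (4.63e-07), while a second probe set at a mean of 3.08 log2 gave -0.10. Zeb2 gave 0.07 (0.68). The eye homeobox gene Vax2 fell by 1.5 ± 0.12 (1.03e-06), Kdelr3, a receptor that returns proteins to the endoplasmic reticulum (ER), by 1.38 ± 0.13 (4.65e-06), Pxk by 1.35 ± 0.10 (4.63e-07), and Narf, a binding partner of prelamin A, by 1.32 ± 0.08 (1.39e-07; -0.40 from a dimmer probe set). The uncharacterized 2210409E12Rik fell by 1.39 ± 0.25 (8.88e-04).

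The promoters of the genes that fell most held the TGIF letters more often than those of other genes. Promoter sequences from RefSeq (build GRCm38.p6; 250 bases before to 50 bases after a gene's start) were matched by symbol for 9887 of the 12393 genes, including 40 of the 52 genes that fell at least 2-fold. CTGTCA, on either strand, was in 23 of those 40 (57.5%), against 2021 of all 9887 (20.4%) and 1444 of the 7225 not called (20%). The share followed the size of the fall: it was 32% of 300 genes called lower by 0.5 to 1 log2 and 25.4% of 990 called lower by less. Among genes called higher the shares were 15.1% of 911 for changes under 0.5 log2, 16% of 332 for 0.5 to 1, and 18% of 89 for at least 2-fold. The letter before TGTCA went with the count: with A, G or T in place of the first C the words were in 10%, 12.5% and 10% of the 40, against 10.9%, 12.7% and 11.5% of all genes. TGTCA alone was in 67.5% and 42.9%, and GTGAC, searched for comparison, was in 45% and 50.3%. The other comparison words of 5 letters were in 47.5% and 50% of the 40 and in 43.1% and 46.9% of all. Median GC content of the windows was 59.7% for the genes that fell at least 2-fold and 59% for all genes tested.

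In replicates 1-2 alone, 20 of 46 genes at least 2-fold lower held CTGTCA (43.5%), and in replicates 3-4 alone 26 of 54 (48.1%). For the arrays labelled Tgif1 OE, set against the same controls, it was 19 of 44 (43.2%). These shares are descriptions without a test. They came from a search of 12 patterns, which also took in palindromes and close repeats of TGTCA and the CArG box below, and CTGTCA was singled out after its share was seen. A match is not a measured binding site.

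The windows of 6 genes are shown because they carry those letters and the largest falls: the 4 with CTGTCA among the 7 of the 12 largest falls that had a promoter entry, and Otub2 and Fam111a, which also stood below the arrays labelled Tgif1 OE. Capitals mark CTGTCA or, read on the other strand, TGACAG; each window reads 5′ to 3′ on the gene's strand, and the gene starts after base 250. The word begins at base 209 in Plgrkt, 277 in Eea1, 259 in Timm8a2, 144 in Otub2 and 242 in Fam111a, and at bases 225 and 239, in opposite orientations, in Sun2. Windows lie at chr19:29361822-29362121 (minus strand) for Plgrkt, chr10:95940413-95940712 (plus) for Eea1, chr14:122034424-122034723 (plus) for Timm8a2, chr15:79742487-79742786 (minus) for Sun2, chr12:103388431-103388730 (plus; 1 of 3 listed) for Otub2 and chr19:12573260-12573559 (plus; 1 of 2 listed) for Fam111a.
Plgrkt: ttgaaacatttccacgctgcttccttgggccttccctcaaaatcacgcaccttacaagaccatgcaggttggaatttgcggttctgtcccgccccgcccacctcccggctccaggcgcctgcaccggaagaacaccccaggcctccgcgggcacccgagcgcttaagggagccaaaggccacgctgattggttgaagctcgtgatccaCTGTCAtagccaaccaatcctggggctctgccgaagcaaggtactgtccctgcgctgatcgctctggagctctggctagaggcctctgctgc
Eea1: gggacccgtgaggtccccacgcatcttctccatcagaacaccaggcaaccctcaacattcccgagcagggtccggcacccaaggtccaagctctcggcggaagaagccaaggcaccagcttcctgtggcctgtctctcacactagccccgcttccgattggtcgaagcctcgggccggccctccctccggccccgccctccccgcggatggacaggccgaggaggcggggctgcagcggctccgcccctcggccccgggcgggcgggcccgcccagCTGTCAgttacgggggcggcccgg
Timm8a2: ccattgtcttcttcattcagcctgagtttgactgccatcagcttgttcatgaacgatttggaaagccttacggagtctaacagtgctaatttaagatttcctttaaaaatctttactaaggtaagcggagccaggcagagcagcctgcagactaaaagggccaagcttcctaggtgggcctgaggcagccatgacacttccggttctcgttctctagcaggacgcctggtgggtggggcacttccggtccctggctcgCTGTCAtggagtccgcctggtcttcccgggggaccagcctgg
Sun2: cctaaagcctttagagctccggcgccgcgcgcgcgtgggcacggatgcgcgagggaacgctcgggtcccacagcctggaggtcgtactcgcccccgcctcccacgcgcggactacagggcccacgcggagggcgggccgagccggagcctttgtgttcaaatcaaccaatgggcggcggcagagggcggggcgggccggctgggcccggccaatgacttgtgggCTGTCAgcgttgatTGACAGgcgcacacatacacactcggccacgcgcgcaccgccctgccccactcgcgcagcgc
Otub2: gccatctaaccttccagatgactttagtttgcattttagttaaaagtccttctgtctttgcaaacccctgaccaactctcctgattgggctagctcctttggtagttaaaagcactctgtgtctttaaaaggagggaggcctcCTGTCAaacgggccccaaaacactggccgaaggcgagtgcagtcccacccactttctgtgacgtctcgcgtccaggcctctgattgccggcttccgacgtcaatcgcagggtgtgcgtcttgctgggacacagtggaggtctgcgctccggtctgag
Fam111a: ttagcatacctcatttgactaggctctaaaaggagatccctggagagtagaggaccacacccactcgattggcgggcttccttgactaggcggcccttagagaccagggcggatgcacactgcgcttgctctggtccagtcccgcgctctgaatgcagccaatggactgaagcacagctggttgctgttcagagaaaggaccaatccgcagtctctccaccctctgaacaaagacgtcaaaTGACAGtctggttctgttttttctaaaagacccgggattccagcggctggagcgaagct

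Genes of the actin cytoskeleton and targets of the transcription factors SRF and Yap rose in most cases. Of 22 measured members 16 were called higher and 0 lower by limma (1 lower at an unadjusted p under 0.05), with a median change of 0.63, against 13.7% higher and a median of 0 over all genes. The count was 12 with a random block for the array pair, and the median was 0.43 in replicates 1-2 and 0.93 in replicates 3-4. Besides Myl9, Tagln and Thbs1, Ccn1 (Cyr61), a matricellular target of Yap, read 8.51, 8.54, 8.90 and 8.92 against 6.74, 6.97, 6.87 and 6.89. The groups stood far apart on all arrays, and Ccn1 rose 3.6-fold (1.85 ± 0.10, adjusted p = 1.54e-08). Its relative Ccn2 (Ctgf) read 10.10, 10.08, 10.79 and 10.92 against 9.37, 9.32, 9.60 and 9.55, a rise of 1.01 ± 0.16 (2.61e-04). Smooth muscle actin, Acta2, rose by 1.54 ± 0.31 (0.0021), though a second probe set at a mean of 3.33 log2 gave -0.11. The calponins Cnn1 and Cnn2 rose by 1.12 ± 0.22 and 0.91 ± 0.11, tropomyosin Tpm1 by 1.14 ± 0.20 and vinculin, Vcl, by 0.74 ± 0.09. Cytoplasmic actin, Actb, gave 0.07 ± 0.04 (0.274).

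Tagln and Acta2 are also markers of fibroblasts. Of 15 measured fibroblast markers, 3 were higher, namely Tagln, Acta2 and the collagen gene Col5a2, and 0 lower by limma. At an unadjusted p under 0.05, 5 were higher and 0 lower. The share called was 20%, against 26.7% of all genes. The summed linear intensity of the 15 markers was 2413 to 3771 on the arrays labelled Tgif2 OE and 1680 to 2038 on BirA control. It was 1918 to 2207 against 1534 to 1817 without Tagln and Acta2 (exact two-sided permutation p = 0.0286, the smallest that 4 against 4 can give). Most of the latter was Vim, and without it too the sums were 411.9 to 516.7 against 350.9 to 437.6 (p = 0.143 in the same exact test). The markers Col1a1 (4.21 against 4.32), Dcn (4.51 against 4.62), Lum (2.97 against 2.89) and Postn (3.71 against 3.53) were dim in both groups and did not pass the test, nor did Col1a2 (0.28), Col3a1 (0.20), Thy1 (0.22), Vim (0.28), Pdgfrb (-0.30), Col6a1 (0.07), Col6a2 (0.03) and S100a4 (-0.03); the part of such cells in the actin result was not tested. In bulk RNA, a change in the number of cells of a type and in RNA per cell cannot be told apart.

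The CArG box, the 10-letter element that SRF binds, was searched for in the same promoter windows because of this list. It was in 3 of the 13 actin-list genes that rose and had a promoter entry (23.1%), against 1.75% of 9887 genes tested. This is a description over few genes, from a list that names SRF targets. Such genes may carry the box whether or not they rose, and no share was taken for members that did not rise. The windows of those 3 genes are shown with the box in capitals: Cnn2 at chr10:79988350-79988649, Myl9 at chr2:156775214-156775513 and Vcl at chr14:20929148-20929447, all on the plus strand of GRCm38.p6.
Cnn2: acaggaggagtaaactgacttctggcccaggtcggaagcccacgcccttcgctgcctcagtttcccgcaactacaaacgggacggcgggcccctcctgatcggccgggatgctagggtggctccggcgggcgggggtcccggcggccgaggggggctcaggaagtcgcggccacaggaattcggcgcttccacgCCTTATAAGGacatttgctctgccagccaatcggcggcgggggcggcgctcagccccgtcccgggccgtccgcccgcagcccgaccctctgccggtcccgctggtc
Myl9: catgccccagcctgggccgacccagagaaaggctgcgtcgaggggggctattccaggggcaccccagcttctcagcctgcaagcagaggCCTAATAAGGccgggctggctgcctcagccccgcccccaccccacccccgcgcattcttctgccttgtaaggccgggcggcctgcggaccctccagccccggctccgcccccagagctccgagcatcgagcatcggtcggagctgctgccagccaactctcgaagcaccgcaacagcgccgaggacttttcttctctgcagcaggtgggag
Vcl: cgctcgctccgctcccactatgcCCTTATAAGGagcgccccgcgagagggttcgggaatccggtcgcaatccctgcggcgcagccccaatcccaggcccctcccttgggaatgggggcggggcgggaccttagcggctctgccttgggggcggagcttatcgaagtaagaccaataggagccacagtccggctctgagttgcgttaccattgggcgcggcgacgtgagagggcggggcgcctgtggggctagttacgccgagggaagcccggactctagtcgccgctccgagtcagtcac

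Keratins of simple epithelia and cell junction genes rose as well. Of 20 measured members, 13 were higher and 0 lower by limma (1 lower at an unadjusted p under 0.05), with a median of 0.53. Over all genes 13.7% were higher. With a random block for the array pair 11 members were higher. Krt18 and Krt8, which pair to form the filaments of simple epithelia, rose together. Krt8 read 8.92, 8.98, 10.48 and 10.60 against 7.98, 8.07, 8.18 and 7.98, a rise of 1.69 ± 0.36 (adjusted p = 0.0029), and its other probe sets gave 1.6 and 1.72. Krt18 rose by 2.03 ± 0.40 (0.0017). For both the rise was larger in replicates 3-4, at 2.48 against 0.90 for Krt8 (adjusted p of the difference = 3.05e-05) and 2.76 against 1.29 for Krt18 (1.53e-05). Krt19 changed by 1.54 ± 0.47 (0.0265), a call that ended without BirA control replicate 1 or 2 or Tgif2 OE replicate 3 or 4 (adjusted p from 0.0569 to 0.0859). Of the other keratin genes on the array Krt7 rose by 0.39 and Krt17, of stratified epithelia, fell by 0.79 (1.29e-04).

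Among junction genes, the tight junction genes Cldn7 and Ocln rose by 1.52 ± 0.14 (3.85e-06) and 1.32 ± 0.13 (3.98e-06), Cldn6 by 0.78 ± 0.15 (0.0013) and desmoplakin, Dsp, by 1.04 ± 0.23 (0.0037). These rises were smaller in replicates 1-2 than in replicates 3-4: 0.33 against 1.75 for Dsp (adjusted p of the difference = 3.47e-06), 0.24 against 1.32 for Cldn6 (1.74e-04), 1.02 against 2.02 for Cldn7 (1.56e-04) and 0.94 against 1.71 for Ocln (0.0055). N-cadherin, Cdh2, known for replacing E-cadherin when epithelial cells become migratory, read 8.35, 8.36, 9.0 and 8.90 against 6.92, 7.12, 7.08 and 7.18 and rose by 1.58 ± 0.13 (1.52e-06). E-cadherin, Cdh1, did not fall but rose by 0.40 ± 0.06 (1.36e-04). Plakoglobin, Jup, gave -0.72 ± 0.26 (0.0505).

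Trophectoderm genes overlap this group through their keratins. Of 21 measured, 10 were higher and 2 lower, against 13.7% and 13% of all genes, with a median of 0.28. With a random block for the array pair 5 were higher. Without Krt7, Krt8, Krt18 and Krt19, the members called higher were Rhox6, Rhox9, Fgfr2, Tfap2c, Gata3 and Plac1. Fgfr2, a receptor for fibroblast growth factors, rose by 0.95 ± 0.16 (5.24e-04). Cdx2, the transcription factor that specifies the lineage, read 4.95, 5.21, 5.78 and 5.90 against 4.92, 4.94, 5.16 and 5.03, which overlap (0.45 ± 0.18, adjusted p = 0.075). The Cdx2 call depended on the setting. It was made in replicates 3-4 alone (0.765, adjusted p = 1.93e-04) and with the replicate number (0.0153) or the replicate pair (0.0121) as a fixed block. Averaging probe sets (0.0151) or leaving out the median shift (0.0213) also gave a call. Eomes gave 0.06. Hand1 fell by 0.64 ± 0.10 (3.16e-04).

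The core factors Pou5f1, Sox2 and Nanog did not pass the main test, and part of the naive set fell. Pou5f1 read 12.94, 13.06, 12.97 and 12.99 against 13.14, 13.02, 13.17 and 13.10 (-0.12 ± 0.05, adjusted p = 0.0995). With a trended robust variance Pou5f1 was called lower (adjusted p = 0.0258). Sox2 gave 0.05 ± 0.08 (0.729) and Nanog -0.14 ± 0.17 (0.598), with Nanog at -0.03 in replicates 1-2 and -0.26 in replicates 3-4. Klf4 gave -0.22 ± 0.16 (0.355) and Zfp42 (Rex1) -0.25 ± 0.10 (0.0622). In replicates 3-4 alone Klf4 (-0.427, adjusted p = 0.00047) and Nanog (-0.259, adjusted p = 0.0053) were called lower. With the replicate number as a block Zfp42 was called lower (adjusted p = 0.00313). With a fixed block for replicates 1-2 and 3-4 Zfp42 (4.23e-04), Klf4 (0.0392) and Nanog (0.0445) were. Zfp42 alone of these 3 was also called in each pair of replicates (0.0114 and 0.0156). Of 19 measured members of the core and naive list, 7 were lower and 1 higher, against 13% and 13.7% of all genes, with a median of -0.25. Tbx3, a T-box factor of the naive state, read 9.27, 9.37, 7.67 and 7.89 against 9.95, 9.82, 9.69 and 9.66. All 4 arrays labelled Tgif2 OE were lower, replicates 3-4 by far the most, for a change of -1.23 ± 0.33 (0.013), -0.58 in replicates 1-2 and -1.87 in replicates 3-4 (adjusted p of the difference = 7.80e-05). A dimmer Tbx3 probe set gave -0.17.

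Tcl1, a coactivator of the kinase Akt, read 9.09, 8.99, 8.35 and 8.48 against 9.76, 9.83, 9.68 and 9.80 and fell by 1.04 ± 0.15 (1.32e-04). Nr0b1 (Dax1), an orphan receptor that binds Oct4, fell by 0.92 ± 0.11 (2.15e-05), and Tfcp2l1, a target of LIF signalling, by 0.64 ± 0.10 (2.74e-04). Esrrb changed by -0.74 ± 0.22 (0.0238), which was no longer called without BirA control replicate 1 or 2 or Tgif2 OE replicate 3 or 4 (adjusted p from 0.0619 to 0.078). Klf2 fell by 0.34 ± 0.10 (0.0168). Dppa3 (Stella), a maternal factor that marks naive cells, moved the other way: it read 8.79, 8.79, 8.51 and 8.62 against 8.13, 8.20, 7.35 and 7.23 and rose by 0.95 ± 0.18 (0.0012).

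Of the formative and primed genes 52.9% rose, against 13.7% of all genes. Of 17 measured, 9 were higher and 0 lower by limma (1 lower at an unadjusted p under 0.05), with a median of 0.41 that was 0.49 in replicates 1-2 and 0.33 in replicates 3-4; 8 were higher with a random block for the array pair. Pou3f1 (Oct6), a POU factor of the formative state, read 10.17, 10.18, 11.08 and 10.96 against 9.06, 9.09, 9.36 and 9.33, a rise of 2.62-fold (1.39 ± 0.18, 4.65e-05). Sall2 rose by 1.44 ± 0.12 (1.6e-06), Lef1, a transcription factor of Wnt signalling, by 1.02 ± 0.18 (8.21e-04), Sox3 by 0.76 ± 0.10 (5.83e-05) and Otx2 by 0.53 ± 0.14 (0.0101). Dnmt3b, a de novo DNA methyltransferase, read 12.42, 12.46, 12.66 and 12.65 against 11.84, 11.93, 11.84 and 11.85, a rise of 0.68 ± 0.06 (2.12e-06), whereas the probe sets of Dnmt3a disagreed: the brightest gave 0.47 ± 0.11 (0.004) and the others 0.48, 0.12, 0.09 and -0.02. Fgf5, the classic marker of the primed state, read 4.41, 4.19, 4.25 and 4.25 against 3.99, 4.21, 4.03 and 3.93 and did not pass the main test (0.24 ± 0.11, 0.134). It was called without the median shift (0.355, adjusted p = 0.0218) and in replicates 3-4 alone (0.294, adjusted p = 0.0187). In the DNA methylation list 4 of 10 were higher and 1 lower, led by Gadd45g at 0.95 ± 0.17 (8.49e-04).

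**Figure D3:**
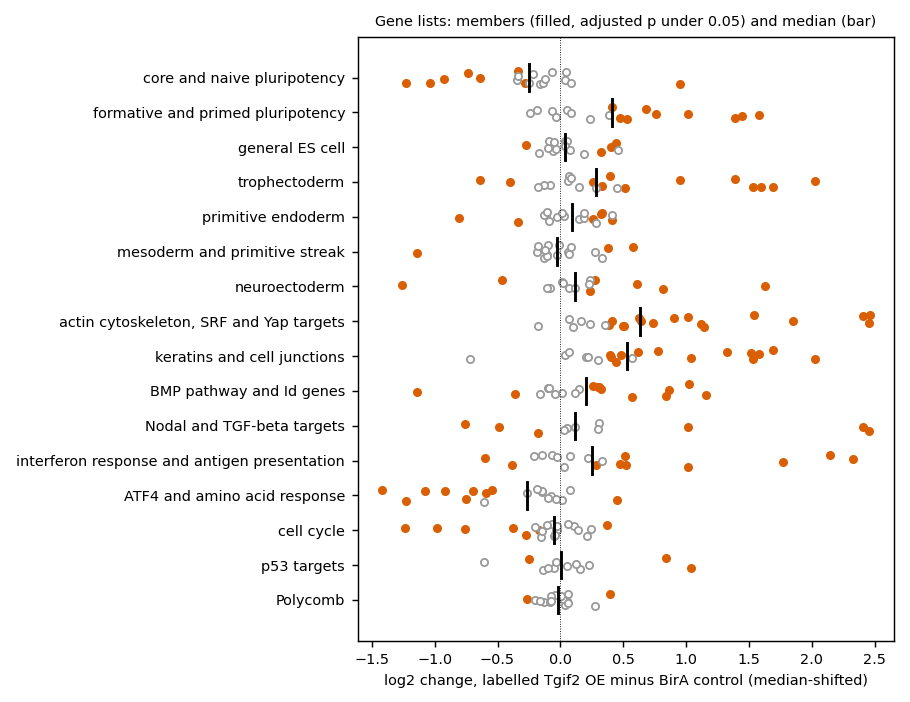
Change of each measured member of 16 gene lists (labelled Tgif2 OE minus BirA control, log2, relative to the median gene), filled where the adjusted p was under 0.05, with the list's median as a bar. The actin, keratin and formative lists lie to the right, with medians of 0.63, 0.53 and 0.41, and the naive and ATF4 lists to the left, at -0.25 and -0.26.

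Smad signalling showed no common direction at the level of ligands, receptors and targets. Of 20 measured Nodal and TGF-beta ligands, receptors and Smads, 5 were higher and 1 lower with a median of 0.04. That is 30% called, beside 54.5% of the target genes below and 26.7% of all genes. Nodal gave -0.07 and Lefty1, a Nodal antagonist and target, 0.05. Follistatin, Fst, an activin inhibitor, read 7.69, 7.76, 8.13 and 8.25 against 6.80, 6.73, 7.01 and 6.96, a rise of 1.08 ± 0.13 (adjusted p = 2.68e-05). The activin subunit Inhba changed by 0.26 ± 0.06 (0.0048), which was not called with a random block for the array pair (0.108) or in replicates 1-2 alone (0.0939), and Inhbb changed by -0.77 ± 0.20 (0.0101), of which -0.09 was in replicates 1-2 and -1.44 in replicates 3-4 (adjusted p of the difference = 1.53e-05). The type I receptor Tgfbr1 rose by 0.52 ± 0.11 (0.0025), with 0.05 from a dimmer probe set. Among 11 target genes 3 were higher, the matrix and contractile genes Tagln, Thbs1 and Ccn2 already described, and 3 lower, which were Tgfbi (-0.76 ± 0.19, 0.0076), Pmepa1 (-0.49) and Ski (-0.18). Other Tgfbi probe sets gave -0.84, -0.69 and 0.22, and their mean was not called (-0.51, adjusted p = 0.0535). The inhibitory Smad7 gave 0.12.

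In the BMP pathway 9 of 18 measured members were higher and 2 lower, against 13.7% and 13% of all genes, with a median of 0.20. The count higher was 5 with a random block for the array pair, as without Tgif2 OE replicate 3 or BirA control replicate 2. The ligand gene Bmp4 fell: it read 7.81, 7.88, 7.87 and 8.02 against 8.79, 8.79, 9.34 and 9.22, a change of -1.14 ± 0.13 (1.63e-05). The Id genes are direct targets of the pathway that block differentiation factors, and of the 4 measured Id1, Id2 and Id3 were higher and Id4 lower. Id3 read 9.43, 9.53, 9.81 and 9.82 against 8.56, 8.33, 8.84 and 8.79 and rose by 1.02 ± 0.13 (5.22e-05), the same in both pairs. Id2 rose by 1.16 ± 0.26 (0.0036), at 0.53 in replicates 1-2 and 1.79 in replicates 3-4. Id1 changed by 0.86 ± 0.27 (0.029), which was no longer called without BirA control replicate 1 or 2 or Tgif2 OE replicate 3 or 4 (adjusted p from 0.0722 to 0.0939), and Id4 by -0.36 (0.0384). The receptor Bmpr1a rose by 0.33 ± 0.05 (2.03e-04) and the inhibitory Smad6 by 0.84 ± 0.15 (7.41e-04).

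Part of the ATF4 response to amino acid shortage fell. Of 19 measured, 8 were lower and 1 higher (Atf3), against 13% and 13.7% of all genes, with a median of -0.26. With a random block for the array pair 8 were lower too. Asns, asparagine synthetase, read 11.21, 11.26, 10.75 and 10.86 against 12.24, 12.24, 11.93 and 11.95, with no overlap, and fell by 1.08 ± 0.12 (adjusted p = 1.96e-05). The stress regulator Nupr1 read 6.68, 6.48, 5.77 and 5.88 against 7.57, 7.44, 7.68 and 7.79, a change of -1.42 ± 0.18 (5.37e-05). Trib3, a pseudokinase target of ATF4, fell by 0.92 ± 0.07 (6.31e-07), Psat1 of serine synthesis by 0.75 ± 0.06 (4.63e-07) and Atf4 itself by 0.70 ± 0.09 (7.67e-05). Chac1, which degrades glutathione, changed by -1.23 ± 0.34 (0.0148) and by -0.96 without Tgif2 OE replicate 3, where the adjusted p was 0.0504. The ER chaperone list held 1 higher and 1 lower of 15 (0 to 3 and 0 to 2 without single arrays), with a median of -0.02, and Hspa5 gave 0.13.

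Guanylate-binding protein genes, interferon-induced GTPases of close sequence, stood out in the interferon list. Gbp3 read 5.97, 6.03, 6.80 and 6.91 against 4.13, 4.19, 4.07 and 3.99, with no overlap, a rise of 5.02-fold (2.33 ± 0.20, 2.10e-06). Gbp2 rose by 2.14 ± 0.32 (1.62e-04) and Gbp2b by 1.77 ± 0.29 (3.94e-04). Outside the list Gbp7 rose by 1.02 (1.35e-05) and Gbp6, at a mean of 2.88 log2, by 0.24 (0.0042), while Gbp8 gave 0.01. The arrays may not separate such relatives fully. In all, 8 of 18 measured members were higher and 2 lower, against 13.7% and 13% of all genes, with a median of 0.25. With a random block for the array pair 6 were higher. The immunoproteasome subunits Psmb8 and Psmb9 rose by 1.01 ± 0.11 (1.38e-05) and 0.52 ± 0.07 (1.37e-04), and the inducing factor Irf1 by 0.47 ± 0.07 (9.70e-05). Ifit1 gave -0.07, and Ifitm3 fell by 0.60. Among 7 measured blood cell markers 1 was higher and 2 lower, the lysosomal Laptm5 at -1.04 ± 0.09 (1.07e-06) and Coro1a at -0.53, and Ptprc (CD45) read 3.27 against 3.11. Of the 7, 42.9% were called, against 26.7% of all genes. The summed intensity of the 7 was 679.2 to 828.4 on the arrays labelled Tgif2 OE and 1279 to 1462 on BirA control, mostly from Laptm5, and 170.6 to 175.9 against 181.3 to 213.8 without it; the part of such cells in these results was not tested.

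**Figure D4:**
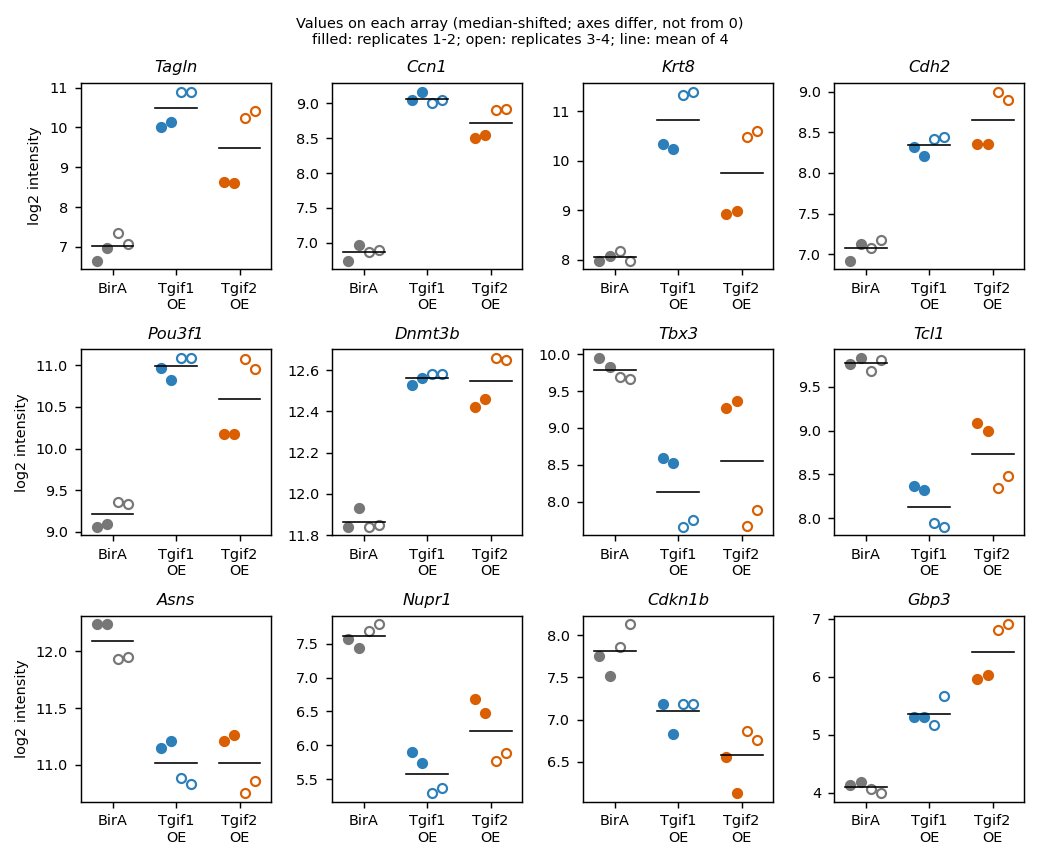
Log2 intensity of 12 genes on each array of BirA control, labelled Tgif1 OE and labelled Tgif2 OE (4 each; filled for replicates 1-2, open for 3-4, line for the mean; axes differ and do not start at 0). Cdh2, Pou3f1 and Gbp3 are higher and Tcl1, Asns and Cdkn1b lower than BirA control on all 4 arrays labelled Tgif2 OE, and replicates 3-4 lie farther from the controls for Krt8 and Tbx3.

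Cell cycle genes were called about as often as all genes: of 23 measured, 6 were lower and 1 higher, 30.4% against 26.7%, with a median of -0.05. Leaving out single arrays gave 0 to 2 higher, and 3 were lower with a random block for the array pair. Cdkn1b (p27) read 6.56, 6.13, 6.86 and 6.76 against 7.75, 7.52, 7.86 and 8.13 and fell by 1.24 ± 0.15 (adjusted p = 3.45e-05), with -0.30 from a dimmer probe set. Cdkn2a (p16 and p19 Arf) read 6.05, 6.30, 6.07 and 6.36 against 7.06, 6.81, 7.10 and 6.85, a change of -0.76 ± 0.10 (5.76e-05). Cdkn2d fell by 0.63 (4.09e-07), Cdkn1c changed by 0.37 (0.0489) and Cdkn1a (p21), Cdkn2b and Cdkn2c gave -0.05 (0.726), 0.28 (0.184) and -0.11 (0.492). The groups overlapped for Cdkn1c, at 0.011 in replicates 1-2 and 0.735 in replicates 3-4 (adjusted p of the difference = 0.0185). Cdkn2b was likewise uneven, at -0.129 and 0.683 (0.0116). Among 12 p53 targets 2 were higher and 1 lower, 25% against 26.7% of all genes. The apoptosis genes Perp and Pmaip1 (Noxa) rose by 1.04 ± 0.26 (0.0077) and 0.84 ± 0.16 (0.0013), less in replicates 1-2 (0.55 and 0.25) than in replicates 3-4 (1.53 and 1.43). That list's median was -0.24 in replicates 1-2 and 0.31 in replicates 3-4.

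The primitive endoderm, mesoderm and neuroectoderm lists had medians near 0, though calls in the neuroectoderm list were more frequent than over all genes. Over all genes 26.7% were called, against 33.3% of the primitive endoderm, 17.6% of the mesoderm and 46.7% of the neuroectoderm list. The share was 25% for the general ES cell list, 25% for the germline list and 20% for the 2-cell-stage list. Primitive endoderm had 4 higher and 2 lower of 18 (median 0.09), and leaving out any 1 array gave 1 to 3 higher. Gata6 gave -0.09 (0.501), and the laminin gene Lama1 read 6.97, 7.08, 7.18 and 7.13 against 7.80, 8.03, 7.91 and 7.84, a fall of 0.81 ± 0.06 (8.67e-07). The mesoderm list had 2 higher and 1 lower of 17 (median -0.02), with Wnt3 up by 0.58 ± 0.10 (5.03e-04). In the neuroectoderm list 5 of 15 were higher and 2 lower (median 0.12). Nefm changed by 1.63 ± 0.44 (0.0129) and the progenitor filament Nes by 0.82 ± 0.15 (0.0011). The adhesion molecule Ncam1 read 5.34, 5.46, 5.28 and 5.37 against 6.67, 6.65, 6.58 and 6.61 and fell by 1.26 ± 0.06 (1.25e-08). Dimmer Ncam1 probe sets gave -1.54, -0.59, -0.24, -0.23 and -0.22. Sox1 and Pax6 gave -0.08 and 0.02. General ES cell genes had 3 higher and 1 lower of 16 (median 0.03), and germline genes 0 higher by limma (0 also at an unadjusted p under 0.05) and 3 lower of 12 (median -0.14), among them the meiotic Hormad1 at -1.09 ± 0.24 (0.0035). Of 5 measured 2-cell-stage genes 1 was lower and 0 higher by limma (0 also at an unadjusted p under 0.05; median -0.01). That gene, Usp17la (-0.32, adjusted p = 0.0405), was not called in 7 of the 8 fits that left out 1 array, the exception being BirA control replicate 3, nor with a random block for the array pair (0.241) or without the shift (0.161).

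Retinoic acid genes were split, with 4 higher and 6 lower of 17 (median 0.06), and 2 to 5 higher when single arrays were left out. Shares called were 58.8% here, 17.6% for Wnt, 20% for FGF-ERK and 30.8% for LIF and Stat3 genes, against 26.7% of all genes. The binding protein Crabp2 read 6.85, 6.86, 7.50 and 7.53 against 6.04, 6.05, 6.16 and 6.03, a rise of 1.12 ± 0.21 (adjusted p = 0.001), and the degrading enzyme Cyp26a1 rose by 0.79 ± 0.12 (2.63e-04). Transglutaminase, Tgm2, fell by 1.23 ± 0.18 (1.84e-04), although its other probe sets ran from -1.47 to 0.37. Wnt genes had 3 higher and 0 lower of 17 by limma (1 lower at an unadjusted p under 0.05, median 0.03), and Axin2, the general target of the pathway, gave 0.02. The 3 were Lef1, Tcf7l1 and Fzd7. Averaged over probe sets, Tcf7l1 (0.111, adjusted p = 0.532) and Fzd7 (0.095, adjusted p = 0.41) were not called. Tcf7l1 was also not called in 5 fits that left out 1 array. FGF-ERK feedback genes had 2 higher and 1 lower of 15 (median -0.06; 1 or 2 higher without single arrays), and LIF and Stat3 genes 1 higher and 3 lower of 13 (median -0.02).

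The partners through which TGIF proteins are known to repress moved by small amounts. Calls made up 36.4% of the corepressor, 40% of the TALE homeobox and 12.5% of the Polycomb list, against 26.7% of all genes. Among 11 measured corepressor genes 3 were higher, Ctbp1 (0.25 ± 0.07, 0.0109), Ctbp2 (0.22 ± 0.05, 0.0077) and Sin3b (0.23 ± 0.06, 0.0069), and Hdac2 was lower (-0.30 ± 0.09, 0.0246). Hdac2 was also no longer called without Tgif2 OE replicate 2 or 4 or BirA control replicate 1 or 2 (adjusted p from 0.0536 to 0.0852). Of the 4 calls, 0 held with a random block for the array pair (adjusted p from 0.0731 to 0.158). Of 15 measured TALE homeobox genes 3 were higher and 3 lower with a median of -0.01. Irx3 read 5.02, 5.42, 5.47 and 5.52 against 4.19, 4.30, 4.54 and 4.18 and rose by 1.05 ± 0.12 (1.66e-05), and Irx5 by 0.69 ± 0.10 (1.29e-04). Polycomb genes had 1 higher (Cbx2) and 1 lower (Mtf2) of 16, with a median of -0.02, and neither call held with a random block for the array pair (adjusted p = 0.0689 and 0.0769). A second Cbx2 probe set gave 0.03, and Mtf2 was no longer called without Tgif2 OE replicate 3 or BirA control replicate 1 or 2 (adjusted p from 0.0535 to 0.0594).

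Metabolic lists changed less than the cytoskeletal ones. Genes called were 36.8% of the glycolysis, 29.4% of the cholesterol and 37.5% of the galectin and matrix list, against 26.7% of all genes. Glycolysis and hypoxia genes had 2 higher and 5 lower of 19 (median -0.10), and leaving out single arrays gave 2 to 5 lower. The oxygen-sensing Egln3 changed by -0.64 ± 0.12 (9.95e-04), with -0.09 from its other probe set at a mean of 6.09 log2. Cholesterol and fatty acid genes had 2 higher and 3 lower of 17 (median -0.03). The cholesterol synthesis enzymes Mvd and Lss fell by 0.67 ± 0.06 (1.44e-06) and 0.64 ± 0.08 (5.53e-05), whereas another, squalene epoxidase, Sqle, rose by 0.37 ± 0.09 (0.0043). In the galectin and matrix list 5 of 16 were higher and 1 lower (median -0.01); Lgals3 read 9.0, 8.95, 8.93 and 9.16 against 10.19, 10.16, 9.92 and 9.96 and fell by 1.05 ± 0.08 (4.52e-07), while Lgals1 rose by 0.57 ± 0.10 (6.93e-04).

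Whether the cells labelled Tgif2 OE differ from those labelled Tgif1 OE was tested directly, since the changes of both groups rest on the same 4 controls, against which the arrays labelled Tgif1 OE had 2525 genes called (20.4%). Between the overexpression groups 1166 genes differed (9.41%), 584 higher on the arrays labelled Tgif2 OE (4.71%) and 582 lower (4.7%); with a random block for the array pair the number was 168, and with the replicate number as a block it was 2061. Genes higher than both other groups numbered 295 (2.38%) and genes lower than both 370 (2.99%). The actin list had 5 of 22 members lower in this contrast, and its median change against BirA control was 0.63 for Tgif2 OE and 0.90 for Tgif1 OE labels. The naive list had 5 members higher and 1 lower, with medians of -0.25 and -0.43.

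Genes of the Rhox cluster, X-linked homeobox genes of placenta and germ cells, were among the genes that differed. Rhox6 read 5.96, 6.11, 6.64 and 6.89 on the arrays labelled Tgif2 OE and 4.49, 4.91, 4.99 and 4.80 on BirA control, a rise of 1.6 ± 0.17 (adjusted p = 1.19e-05), while the arrays labelled Tgif1 OE gave 0.05. Rhox9 read 5.52, 5.67, 6.14 and 6.01 against 4.25, 4.21, 4.68 and 4.64, a rise of 1.39 ± 0.13 (4.51e-06) beside 0.06 for Tgif1 OE. The direct differences were 1.55 ± 0.17 (7.81e-05) and 1.33 ± 0.13 (3.40e-05). Rhox5, named here after its values were seen as the only other measured member of the cluster, had opposite signs: 0.65 ± 0.10 (2.13e-04) on the arrays labelled Tgif2 OE and -0.74 (8.71e-05) on those labelled Tgif1 OE, a difference of 1.38 ± 0.10 (1.51e-06). Hesx1, a homeobox repressor of early forebrain, read 6.48, 6.97, 6.45 and 6.45 against 5.85, 5.55, 5.37 and 5.78 (0.95 ± 0.18, 0.0014), with -0.26 for Tgif1 OE and a difference of 1.21 ± 0.18 (8.92e-04). Nrk and Smad6 stood above the arrays labelled Tgif1 OE by 0.90 ± 0.10 (6.32e-05) and 0.84 ± 0.15 (0.003). Gbp3 stood above them by 1.07 ± 0.20 (0.0045), which was not called with a random block for the array pair (0.0862), whereas its relative Gbp2b was lower than there by 1.15 ± 0.29 (0.0222).

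Several of the largest falls were far smaller on the arrays labelled Tgif1 OE. Plgrkt changed by -0.08 there (0.666), so the groups differed by -1.72 ± 0.11 (4.28e-07). The direct differences were -1.15 ± 0.07 for Sun2 (4.28e-07), -1.20 ± 0.12 for Vax2 (3.51e-05) and -0.98 ± 0.08 for Narf (7.79e-06). Otub2, a deubiquitinase, read 5.30, 5.30, 5.2 and 5.69 against 6.45, 6.35, 6.67 and 6.71 on BirA control (-1.17 ± 0.11, 3.71e-06) and differed from Tgif1 OE by -0.93 ± 0.11 (1.27e-04); its second probe set, at a mean of 3.84 log2, gave 0.22. Fam111a, a protease that acts at replication forks, read 7.31, 7.30, 7.41 and 7.22 against 8.38, 8.46, 8.50 and 8.56 (-1.17 ± 0.09, 6.94e-07) and differed by -0.87 ± 0.09 (4.51e-05). CTGTCA was in the promoter windows of 4 of the 5 genes with an entry among the 6 named as lower than both groups (80%), against 20.4% of all genes. Those 4, Plgrkt, Sun2, Otub2 and Fam111a, were already counted above among the genes that fell at least 2-fold. CTGTCA was in 29 of 88 genes called lower by at least 0.5 log2 on the arrays labelled Tgif2 OE than on those labelled Tgif1 OE (33%). It was in 28 of 102 called higher by as much (27.5%), so the shares for both directions were above 20.4%.

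**Figure D5:**
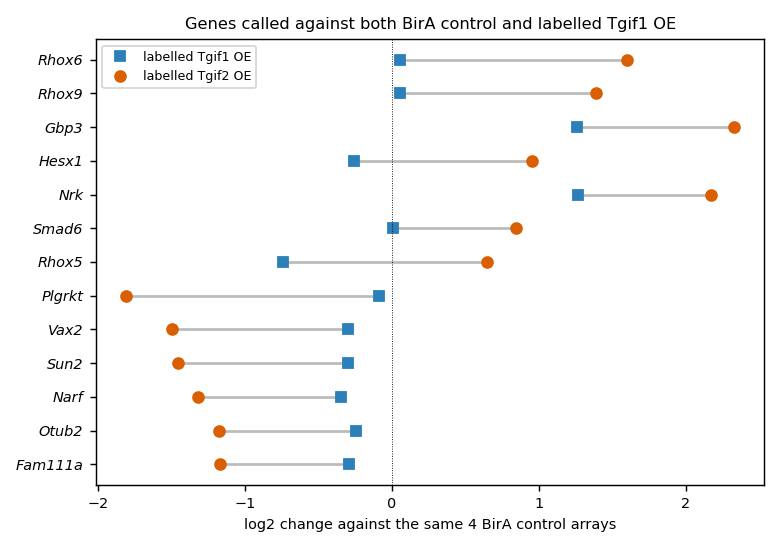
Change against the same 4 BirA control arrays (log2) on the arrays labelled Tgif1 OE (squares) and Tgif2 OE (circles) for the genes named as higher or lower than both other groups, and Rhox5. Rhox6 lies at 0.05 and 1.6, Rhox5 at -0.74 and 0.65, and Plgrkt at -0.08 and -1.81.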

How the data were processed

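Whole-cell RNA of 16 J1 ES cell samples was hybridized to 1 array each. The authors made the deposited log2 intensities per probe set with RMA, per the submitters' processing notes, which also name limma for the Tgif2 OE samples; tool versions are not stated there. Each gene was read from 1 probe set, the one with a single symbol and the brightest average signal across the 16 arrays (annotation of 2016). The median difference of 0.1195 log2 was taken off the Tgif2 OE columns, and 0.0147 off the Tgif1 OE columns where those were compared. A linear model with 5 group means was fitted to all 16 arrays (limma 3.58.1, R 4.3.3), with Benjamini-Hochberg adjustment over 12393 genes and a threshold of 0.05. The model was tested on simulated data, but the outcome is not given here. It has no term for the array pair, so that test is not taken as a check of p-values from arrays that deviate in pairs.

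Genes named were Tgif1, Tgif2 and 10 fixed factors (of which T was not measured), the 12 largest non-overlapping rises and falls, up to 4 called members of each of 30 lists and of 3 marker lists, and up to 6 per direction called against both groups; other list members are given as examples. The members and lists were chosen with earlier results of these data known. Deviations of same-numbered Tgif2 OE and BirA control arrays correlated at 0.35 to 0.40 in all 4 pairs, so numbers were also used as a block; this rests on the data, not on the labels. An array's own number was its best match in 0 of 4, and the correlation was 0.35 to 0.45 within replicates 1-2 or 3-4 and -0.43 to -0.38 across. No proteins are shown.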

Additional observations from a re-analysis of the deposited data

Results flagged for a closer look

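Among 264 sets of 4 arrays (132 named genes in 2 groups), 8 had 1 array far from the other 3 by Dixon's criterion; chance alone gives about 1 in 20. On the arrays labelled Tgif2 OE, Tgm2 was high in replicate 4 at 6.29 log2 (others 5.86 to 5.91), Irx5 low in replicate 2 at 4.33 (4.57 to 4.59), Hesx1 high in replicate 2 at 6.97 (6.45 to 6.48) and Smad6 high in replicate 4 at 6.89 (6.73 to 6.75). On BirA control, Crabp2 was high in replicate 3 at 6.16 (6.03 to 6.05), Sesn1 high in replicate 2 at 8.42 (all others 8.38), Gbp2b low in replicate 1 at 5.49 (5.86 to 5.93) and Dnmt3b high in replicate 2 at 11.93 (11.84 to 11.85). The 4 arrays of each group did not overlap for any of these 8 genes.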

How the results depend on the processing

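Without the median shift, 3559 genes were higher and 829 lower (81.1% of calls higher against 51.2%), Tgif2 changed by 0.109 and Gata6 by 0.031 in place of small negative values that did not pass the test, and 2439 genes differed from Tgif1 OE. A random block for the array pair left 1499 genes called (798 higher, 701 lower), 168 between the overexpression groups. The replicate block gave 4325 and 2061, and a fixed block for replicates 1-2 and 3-4, added after seeing the data, gave 4840 and 2771. In replicates 3-4 alone 277 genes changed at least 2-fold, Tgif2 by 0.075 and Gata6 by 0.045. Leaving out single arrays gave 2772 to 3061 genes called and values of -0.046 to 0.027 for Tgif2, -0.021 to 0.096 for Sox2 and 130 to 214 genes changed at least 2-fold. Median centring, quantile normalization, fitting the 2 groups only, averaging probe sets, dropping the dimmest genes and a trended robust variance kept each of these counts within 1.5 times. The number of arrays limits precision, and for dim probe sets signal over background does.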
